A study of Mus musculus with 203 samples.

Results

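Oxidative phosphorylation is carried out in the inner mitochondrial membrane by 5 protein complexes. Complexes I to IV form the respiratory chain, which passes electrons from NADH and succinate to oxygen and pumps protons, and complex V, the ATP synthase, uses the proton gradient to make ATP. A few subunits are encoded by mitochondrial DNA, but most are encoded in the nucleus and imported, and neurons rely on this pathway for most of their ATP. The nuclear genes were followed here across the types of motor neuron of the mouse nucleus ambiguus (Amb), a brainstem nucleus whose neurons send axons through the vagus to the heart, the airways and the larynx.

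The members were taken by gene symbol alone, as the rows of the count table named Nduf followed by a, b, c, s or v and a number, Sdha to Sdhd, Uqcr, Cox4 to Cox8 followed by a, b or c, or Atp5. Complex I assembly factors and pseudogenes were left out. Of 24029 genes in the table, 82 met the rule. These were 37 genes named for complex I, 4 for complex II, 8 for complex III, 16 for complex IV and 15 for complex V, together with Atp5s and Atp5sl. The last pair carry the Atp5 name, but Atp5sl is known as a complex I assembly factor and Atp5s is its relative, so they are given apart. The rule also misses some subunits with other symbols, such as Cox4i1, Cyc1 and Ndufab1, which are described after the members.

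Each sample was 1 neuron. Wild-type C57BL/6 pups, of the substrain C57BL/6NCrl by the methods, received the fluorescent tracer cholera toxin B in the pericardial space or the cricothyroid muscle of the larynx, and labeled Amb neurons were aspirated singly at postnatal days 2 to 4. Smart-seq2, which amplifies the full-length cDNA of each cell by PCR, was used to sequence them. By the deposited annotation 53 neurons were ACP and 98 were ACV, the ambiguus cardiopulmonary and cardiovascular clusters of heart-labeled neurons, and 52 were Larynx, the laryngeal motor neurons. The authors made the ACP and ACV clusters from these same counts, and the heart and the larynx were injected in different animals.

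The labels name no animal for a neuron. Each type was therefore treated as 1 sample, no test was made, and every comparison below is a description of these neurons. Errors are SDs over neurons. The types differed in their libraries as well. The ribosomal RNA transcript Rn45s took a mean of 37% of the counts in ACP, 38.5% in ACV and 58.2% in Larynx neurons, and the median counts left outside it were 1115375, 1120512 and 560892. Levels are therefore counts per 1000000 counts outside Rn45s, called CPM here. Of the other cell types checked, astrocyte markers were the most abundant, at a median summed level of 1168, 1018 and 1193 CPM in ACP, ACV and Larynx neurons. All 6 cholinergic motor neuron markers, among them Chat, Slc18a3 and Isl1, were present in every type, at a median summed level of 3601, 3958 and 4883 CPM. The 8 skeletal and cardiac muscle markers had medians of 8.45, 10.4 and 4.35 CPM, which bears on the muscle isoforms below. The summed level of the members had a Spearman correlation of -0.24, 0.12 and -0.00 with that of the astrocyte markers in the 3 types. The correlation was -0.43, 0.10 and -0.10 with oligodendrocyte lineage markers and 0.31, 0.24 and 0.14 with the muscle markers. With endothelial markers it was -0.34, 0.10 and 0.09. With erythrocyte markers it was -0.45, -0.30 and -0.15, and both lists had medians of 0 CPM. Pericyte, microglia and other neuron markers lay between -0.28 and 0.19. The part of other cells in the members' levels was not tested.

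The summed level of the 82 members was close in the 3 types. In ACP neurons it ran from 8170 CPM to 54314 CPM, with a median of 21649 and a mean of 23571 ± 8403 (SD, n = 53). In ACV neurons it ran from 9664 to 53102 CPM, with a median of 25398 and a mean of 26571 ± 8761 (SD, n = 98). In Larynx neurons it ran from 13769 to 47375 CPM, with a median of 26585 and a mean of 26590 ± 7649 (SD, n = 52). The ranges overlapped almost throughout, and the members took 2.36%, 2.66% and 2.66% of the counts outside Rn45s. The mean of ACP neurons was 11.3% below that of ACV neurons and 11.4% below that of Larynx neurons, log2 ratios of -0.17 in both cases. These differences were smaller than the spread between neurons, whose SD was 0.51 and 0.48 on the log2 scale. A randomly paired ACP neuron was the higher one in 39.2% of pairs with an ACV neuron and in 38.9% of pairs with a Larynx neuron. The means of ACV and Larynx neurons were nearly equal, and ACV neurons were higher in 49% of pairs. Scaling decides the comparisons with Larynx neurons. With Rn45s kept in the totals the log2 ratios became 0.47 for ACP over Larynx and 0.58 for ACV over Larynx, while the median over all genes moved to 0.57 and 0.50.

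**Figure D1:**
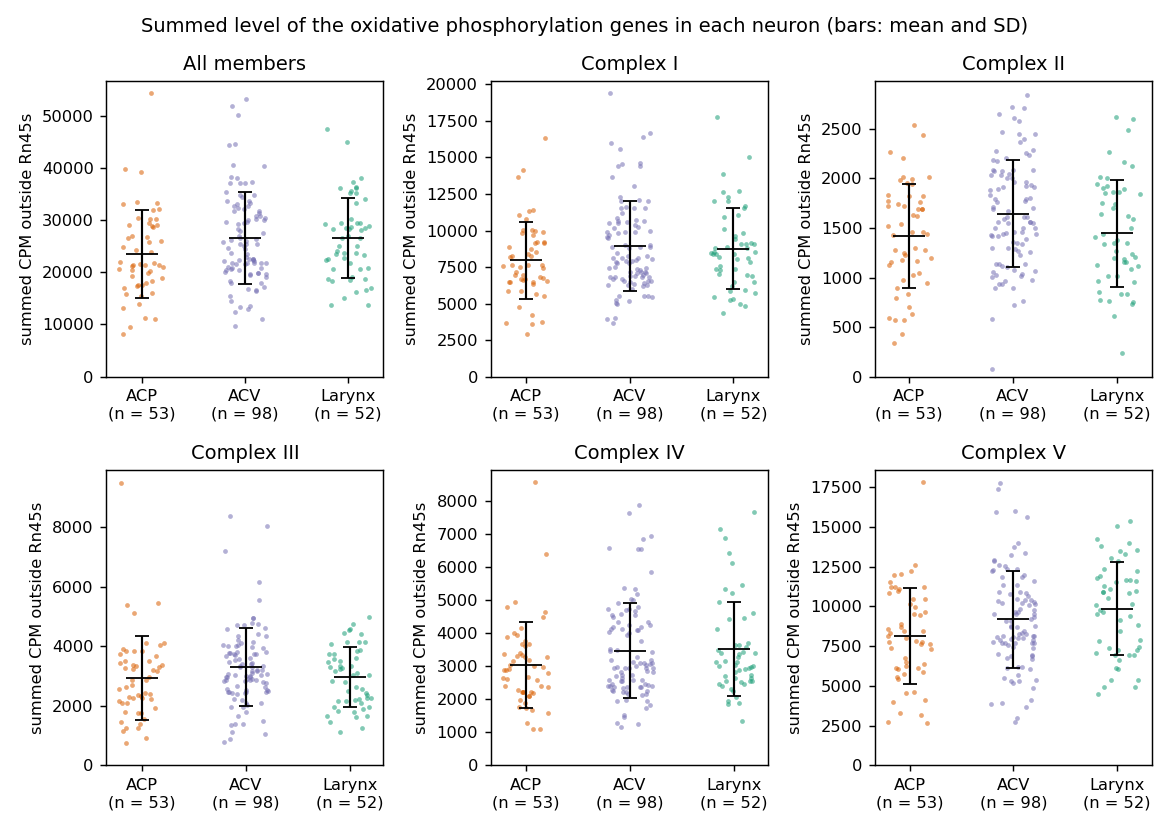
Each dot is 1 neuron, with the summed level of all 82 members or of the members of 1 complex on the vertical axis, in counts per 1000000 counts outside Rn45s, and the neuron type on the horizontal axis. Black bars give the mean and SD, and for all members the means of 23571, 26571 and 26590 lie within 1 SD of each other.

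The 5 complexes had the same order of summed level, which also depends on how many members each has and how long their transcripts are. Complex I had a mean of 7967 ± 2633 CPM in ACP, 8918 ± 3079 in ACV and 8761 ± 2756 in Larynx neurons. Complex V, with fewer genes, reached 8141 ± 3000, 9183 ± 3065 and 9846 ± 2921 CPM. Complex IV had 3031 ± 1294, 3470 ± 1440 and 3509 ± 1420 CPM, and complex III had 2937 ± 1421, 3293 ± 1312 and 2962 ± 1007 CPM. Complex II, which is also the succinate dehydrogenase of the citric acid cycle and is the only complex encoded wholly in the nucleus, had 1420 ± 528, 1645 ± 540 and 1447 ± 538 CPM. In every complex the 3 means lay within 1 SD of each other.

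The members differed far more from each other than the types did. Levels of different genes are compared per kilobase of transcript (CPM per kb, the mean of the 3 types, for members with at least 5 CPM). In complex V the highest member was Atp5b, the catalytic beta subunit, at 1448 CPM per kb, and the lowest was Atp5l, subunit g, at 85.4. In complex I the highest was Ndufa4 at 1159 CPM per kb and the lowest Ndufb4, an accessory subunit, at 28.1. Ndufa4 carries a complex I name, although its protein is now known to associate with complex IV. In complex III the core protein gene Uqcrc1 was highest at 730 CPM per kb and its partner Uqcrc2 lowest at 141.4. In complex II the iron-sulfur subunit gene Sdhb was highest at 471 CPM per kb and Sdha, the flavoprotein, lowest at 162.9. In complex IV Cox6b1 was highest at 1212 CPM per kb and its testis-type relative Cox6b2 lowest at 16.9.

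Reads of these genes can be shared with copies elsewhere in the genome, or with other genes, such as Pdzd9 for Uqcrc2 and Kbtbd4 for Ndufs3. In the GENCODE vM21 transcripts, 76% of the 75-base stretches of Atp5l occur in other genes, and so do 35.2% of those of Ndufb4, 35.8% of Atp5g2, 35.5% of Atp5o, 28.2% of Ndufs3, 22.8% of Uqcrc2, 20.8% of Cox7c and 15.7% of Ndufs5. Uqcrb, Ndufb6, Atp5h, Atp5f1 and Ndufa13 share from 25.6 to 29.1%. Of the members matched in that annotation, 64 of 81 share less than 10%. Ndufs5, an accessory complex I subunit, had 3 counts in all, in 2 ACV neurons. BC002163, which shares sequence with it, had a mean of 34.1 CPM in ACP, 41.9 in ACV and 16.8 in Larynx neurons. The levels of Ndufs5, Atp5l and the other members with shared stretches are therefore uncertain.

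**Figure D2:**
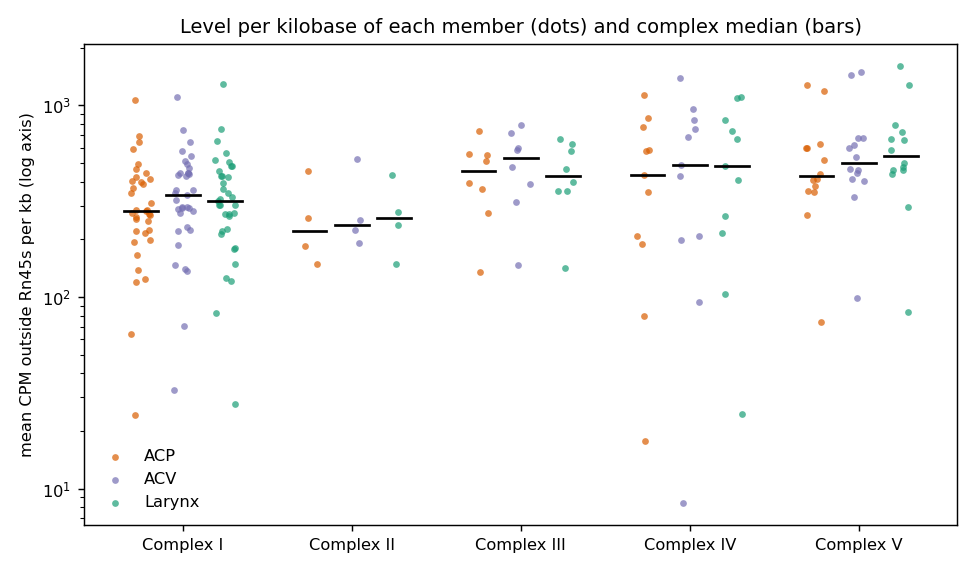
Each dot is a member with at least 5 CPM, placed by complex, with its mean level per kilobase of transcript in ACP (orange), ACV (purple) or Larynx (green) neurons on a log axis, and black bars are the medians of each complex. The levels span from 16.9 to 1212 CPM per kb within complex IV alone when averaged over the types, while the medians of the 3 types lie side by side in each complex.

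The order of the members was nearly the same in each type. Across the 74 members with at least 5 CPM, the log2 levels had a Pearson correlation of 0.990 between ACP and ACV neurons, 0.981 between ACP and Larynx neurons and 0.977 between ACV and Larynx neurons. These are correlations across genes, which are not independent replicates and differ in length. Detection was also nearly complete, since 68 of the 82 members had a count in at least 95% of the neurons of every type.

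The core subunits, most of which hold redox centers or nucleotide sites or stand beside them, were present in all types. Ndufs1, which holds several iron-sulfur clusters of complex I, had 166.2 ± 114.2 CPM in ACP, 183.4 ± 116.6 in ACV and 213 ± 145.6 in Larynx neurons. Ndufv1, the NADH-binding subunit, had 376 ± 183.1, 405 ± 218 and 480 ± 283 CPM. Sdha had 430 ± 254, 556 ± 296 and 432 ± 271 CPM. Uqcrfs1, the Rieske iron-sulfur protein of complex III, had 372 ± 220, 429 ± 235 and 486 ± 289 CPM. Sdhb had 522 ± 241, 597 ± 258 and 496 ± 255 CPM, and Uqcrc1 had 1210 ± 642, 1308 ± 672 and 1100 ± 577 CPM. Cox5a, a nuclear subunit of complex IV, had 497 ± 284, 540 ± 259 and 542 ± 230 CPM. The 16 core subunits listed ran from a log2 ratio of -0.37 to 0.05 for ACP over ACV, -0.38 to 0.14 for ACP over Larynx and -0.25 to 0.36 for ACV over Larynx. None of them reached 1.5-fold in any comparison.

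For complex V, Atp5b ran in ACP neurons from 608 CPM to 4381, with a median of 2294. In ACV neurons it ran from 836 to 5265, with a median of 2804, and in Larynx neurons from 825 to 5746, with a median of 3082. All 3 ranges overlapped, and the log2 ratio was -0.17 for ACP over ACV, -0.32 for ACP over Larynx and -0.15 for ACV over Larynx. Atp5a1, the alpha subunit that forms the catalytic hexamer with beta, had 1479 ± 630, 1667 ± 686 and 1652 ± 739 CPM. Atp5d, the delta subunit of the central stalk, had 561 ± 333, 580 ± 310 and 738 ± 310 CPM.

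Of the isoforms typical of muscle, testis or low oxygen, all but Cox6b2 had means under 5 CPM in each type, while their general partners were above 200. Cox6b2, a testis-type isoform with a mean of 7.70 CPM in ACP, 3.65 in ACV and 10.7 in Larynx neurons, is described with the members past the fold. Cox6a1 had a mean of 330 ± 123.96 CPM in ACP, 428 ± 228 in ACV and 380 ± 195.4 in Larynx neurons, against 4.67 ± 10.9, 3.74 ± 17.6 and 2.61 ± 6.98 for the heart and muscle isoform Cox6a2. A count of Cox6a2 was found in 24.5%, 12.2% and 17.3% of neurons. The 95% exact binomial intervals were 13.8 to 38.3%, 6.49 to 20.4% and 8.23 to 30.3%. Without molecular identifiers, PCR copies are counted like molecules. The binomial intervals here and below treat neurons as independent draws and do not cover differences between animals. Cox7a2 had 284 ± 190.5, 322 ± 184.5 and 319 ± 198.5 CPM, and its muscle relative Cox7a1 had 1.01 ± 2.33, 1.30 ± 4.13 and 0.244 ± 1.03 CPM. Cox7b had 208 ± 119.1, 208 ± 108.3 and 216 ± 111.97 CPM, against less than 1 CPM in each type for its testis relative Cox7b2.

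Cox8a, the general form of complex IV subunit VIII, had 473 ± 229, 525 ± 253 and 599 ± 355 CPM. Its muscle relative Cox8b and the testis form Cox8c each had counts in 1 ACV neuron of 98 and none in ACP or Larynx neurons, with 3 and 30 counts in all. A count in 0 of 53 or 0 of 52 neurons allows a share of neurons with a count of up to 6.72% or 6.85% (upper 95% exact binomial limits). The hypoxia-inducible Ndufa4l2 had 0.212 ± 1.02, 1.12 ± 7.90 and 0.554 ± 2.39 CPM, against 482 ± 215, 502 ± 254 and 587 ± 266 for Ndufa4. Among the 3 genes for the identical c subunit of the ATP synthase ring, Atp5g1 had 435 ± 209, 466 ± 222 and 503 ± 181.2 CPM, and Atp5g3 had 315 ± 148.2, 383 ± 179.5 and 420 ± 168.7. Atp5g2 had 4.33 ± 7.92, 4.22 ± 10.9 and 3.77 ± 5.12 CPM. In total 8 members had a mean under 5 CPM over the 3 types, namely Ndufa4l2, Ndufs5, Cox6a2, Cox7a1, Cox7b2, Cox8b, Cox8c and Atp5g2, and the other 74 were compared between types.

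A member was counted as past the fold where the ratio of its means, each with 1 CPM added, was at least 1.5. Between ACP and ACV neurons 1 of 74 members was past it, higher in ACP, beside 26.4% of the 11235 genes with at least 5 CPM. Between ACP and Larynx neurons 2 members were past it, 1 in each direction, beside 35.2% of all genes. Between ACV and Larynx neurons 4 were, 2 in each direction, beside 38.4%. Low genes pass a fold more easily in single neurons, so members and other genes of at least 100 CPM were also set side by side. Of 67 such members 0, 1 and 1 passed the fold in the 3 comparisons, against 10.3%, 17.5% and 21.6% of 2312 genes. In all, 69 of the 74 members stayed within 0.5 on the log2 scale in all comparisons, which share their neurons.

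**Figure D3:**
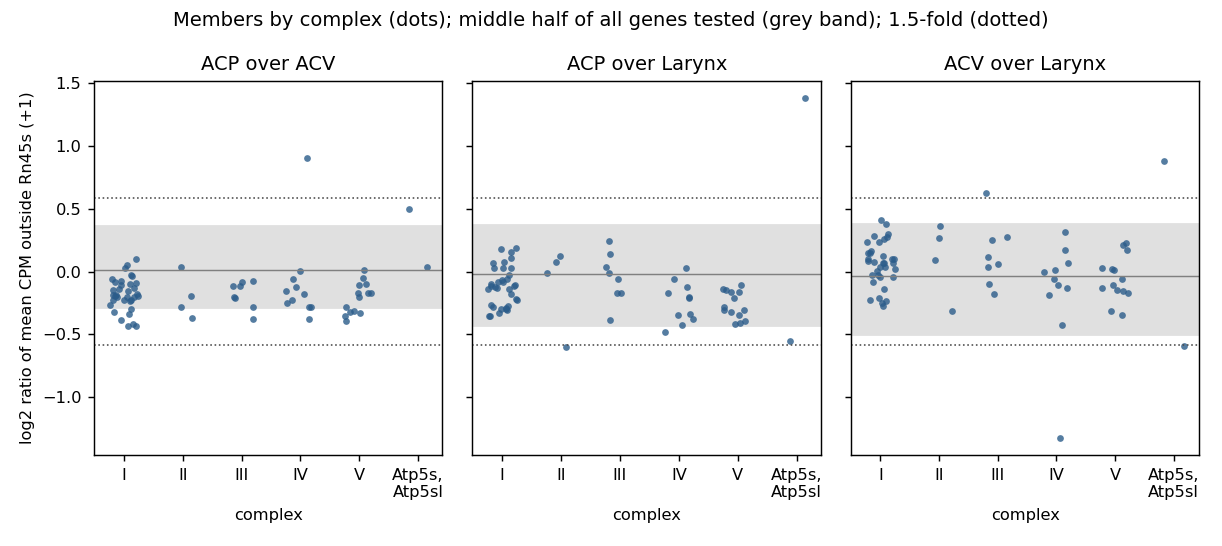
Each dot is 1 of 74 members, by complex, with its log2 ratio of mean CPM (1 added) on the vertical axis in each of the 3 comparisons. The grey band is the interquartile range of all 11235 genes with its median as a line, dotted lines mark 1.5-fold, and 1, 2 and 4 members lie outside the dotted lines.

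Within that narrow range the members leaned one way in ACP neurons. For ACP over ACV, 65 of 74 members had a log2 ratio below 0, with a median of -0.18, beside a median of 0.01 over all genes. For ACP over Larynx 58 members were below 0, with a median of -0.15 beside -0.02. For ACV over Larynx 30 members were below 0, with a median of 0.04 beside -0.03. Of all 11235 genes, 5488, 5799 and 5851 were below 0 in the 3 comparisons. At 100 CPM or more, the medians of the 67 members were -0.18, -0.14 and 0.04. Those of all 2312 genes of that level were -0.02, 0.04 and 0.05, so the members did not stand above such genes for ACV over Larynx. ACP neurons had the lowest mean of the 3 types for 53 members, among them 13 of 14 in complex V, 25 of 35 in complex I and 8 of 11 in complex IV. The same count was not made over all genes. These counts shift with the neurons used. With only the neurons in which the glial gene Apoe had at most 900 counts, 42 of 75 members were below 0 for ACP over ACV and 49 for ACV over Larynx. With only the neurons of 30 to 60% Rn45s, 37 of 74 were below 0 for ACP over Larynx and 10 for ACV over Larynx, and 9 members were past the fold in the latter, 8 of them higher in ACV, beside 46.7% of all genes in the same neurons. With Rn45s kept in the totals, 1 of 73 members was below 0 in either comparison with Larynx neurons. Markers of other cells also differed between ACP and ACV neurons. Of 6 microglia markers, 5 were past the fold and lower in ACP, with a median log2 ratio of -2.27. Their summed level ran from 0 to 418 CPM in ACP, 0 to 4326 in ACV and 0 to 1632 in Larynx neurons, with means of 55.6, 304 and 165.3. The 6 astrocyte markers had a mean summed level of 1557 CPM in ACP, 2469 in ACV and 1608 in Larynx neurons, and 2 of them were past the fold and lower in ACP than in ACV. Oligodendrocyte lineage markers went the other way, with all 5 tested above 0 for ACP over ACV, 2 of them past the fold, and a median of 0.55. Their mean summed level was 710 CPM in ACP, 477 in ACV and 640 in Larynx neurons. The part of all these markers' cells in the members' lean was not tested. The members' counts are not independent of each other, as they rise and fall together between neurons.

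The 5 members past the fold in any comparison are described next. Cox6b2 (chromosome 7, 4751792 to 4753094, minus strand, GRCm38) was past it in the comparisons of ACV with either other type. It ran from 0 to 53.4 CPM in ACP neurons, with a median of 3.03, from 0 to 26.9 in ACV neurons, with a median of 0, and from 0 to 70.003 in Larynx neurons, with a median of 2.48. Its means were 7.70 ± 12.1, 3.65 ± 5.95 and 10.7 ± 16.5 CPM. The log2 ratios were 0.90 for ACP over ACV and -1.33 for ACV over Larynx. A count was found in 54.7%, 41.8% and 57.7% of neurons, and in 32.1%, 23.5% and 40.4% once all neurons were thinned to 118492 counts. The ranges overlapped, and Cox6b2 had the lowest level of the members compared.

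Atp5s (chromosome 12, 69724950 to 69744660, plus strand) ran from 0 to 395 CPM in ACP neurons, with a median of 30.2. In ACV neurons it ran from 0 to 239 CPM, with a median of 16.7, and in Larynx neurons from 0 to 111.3, with a median of 4.55. Its means fell in that order, at 41.6 ± 58.9, 29.1 ± 37.4 and 15.4 ± 22.5 CPM. The log2 ratio was 1.38 for ACP over Larynx, 0.88 for ACV over Larynx and 0.50 for ACP over ACV, and ACP neurons were the higher in 69.2% of pairs with Larynx neurons. Atp5sl went the other way, with 33.3 ± 42.2 CPM in ACP, 32.4 ± 41.7 in ACV and 49.3 ± 55.1 in Larynx neurons. Its log2 ratio was -0.55 for ACP over Larynx and -0.59 for ACV over Larynx. Neither is a structural subunit of the ATP synthase.

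Sdhc (chromosome 1, 171127165 to 171150603, minus strand) encodes a membrane anchor of complex II. It ran from 0 to 352 CPM in ACP, 0 to 525 in ACV and 0 to 654 in Larynx neurons, with medians of 151.4, 186.5 and 199.9. Its log2 ratio was -0.60 for ACP over Larynx and -0.31 for ACV over Larynx. The other anchor, Sdhd, had 318 ± 142.2, 310 ± 168.2 and 291 ± 146.5 CPM, with log2 ratios of 0.13 and 0.09. The members of complex II therefore did not share a direction against Larynx neurons.

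Uqcrq (chromosome 11, 53427922 to 53430831, minus strand) encodes a small subunit of complex III. It had a count in every neuron. It ran from 20.4 to 892 CPM in ACP neurons, from 50.9 to 1135 in ACV neurons and from 48.5 to 674 in Larynx neurons, with medians of 212, 330 and 210. Its log2 ratio was 0.62 for ACV over Larynx, with the ACV neuron higher in 72.2% of pairs, and -0.38 for ACP over ACV. With neurons of 30 to 60% Rn45s only it was 1.04 for ACV over Larynx. The other 7 members of complex III lay between -0.18 and 0.27 for ACV over Larynx.

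The largest differences among the other members were under 1.5-fold. Against ACV neurons, ACP neurons had less of the complex I accessory subunits Ndufa1, Ndufv3 and Ndufb4, with log2 ratios of -0.43, -0.43 and -0.41. Cox7a2l, known as a factor of respiratory supercomplexes, had 204 ± 138.3 CPM in ACP, 213 ± 115.9 in ACV and 286 ± 179.6 in Larynx neurons. Its log2 ratio was -0.48 for ACP over Larynx and -0.42 for ACV over Larynx.

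The balance among complexes was also compared within each neuron, as the share of the 5 complexes' summed CPM that falls on 1 complex. This share does not depend on the scaling of the library. Complex V took 34.4 ± 3.46% in ACP, 34.6 ± 3.43% in ACV and 37.2 ± 4.71% in Larynx neurons, and the share was higher than that of a Larynx neuron in 32.2% of pairs for ACP neurons and 33.9% for ACV neurons. Complex II took 6.18 ± 1.70%, 6.41 ± 1.78% and 5.49 ± 1.42%. Complex III took 12.2 ± 2.19%, 12.3 ± 2.04% and 11.1 ± 1.86%. Complexes I and IV took 34.4% and 12.8% in ACP, 33.8% and 12.9% in ACV and 33.1% and 13.2% in Larynx neurons.

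The ratio of complex III to complex V set cardiac and laryngeal neurons apart in the largest share of pairs among the 3 ratios computed, and this ratio was picked out after its values were seen. It ran from 0.186 to 0.642 in ACP neurons, with a median of 0.350, from 0.160 to 0.614 in ACV neurons, with a median of 0.353, and from 0.154 to 0.440 in Larynx neurons, with a median of 0.297. The ranges overlapped, and the ratio was higher in the ACP neuron of 73.4% and the ACV neuron of 75.1% of pairs with a Larynx neuron. For ACP over Larynx all 14 complex V members compared had log2 ratios below 0, from -0.42 to -0.10. Within types the complex V share moved with the counts outside Rn45s, with a Spearman correlation of 0.31 in ACP, 0.58 in ACV and 0.15 in Larynx neurons. Larynx neurons had fewer such counts and the higher share. The difference of ACP from Larynx neurons in this share was -2.73 percentage points, and -3.48 with neurons of 30 to 60% Rn45s only. For ACV it was -2.55, and -1.12 with neurons of 6000 to 10000 genes only. The part of depth in these shares was not tested.

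**Figure D4:**
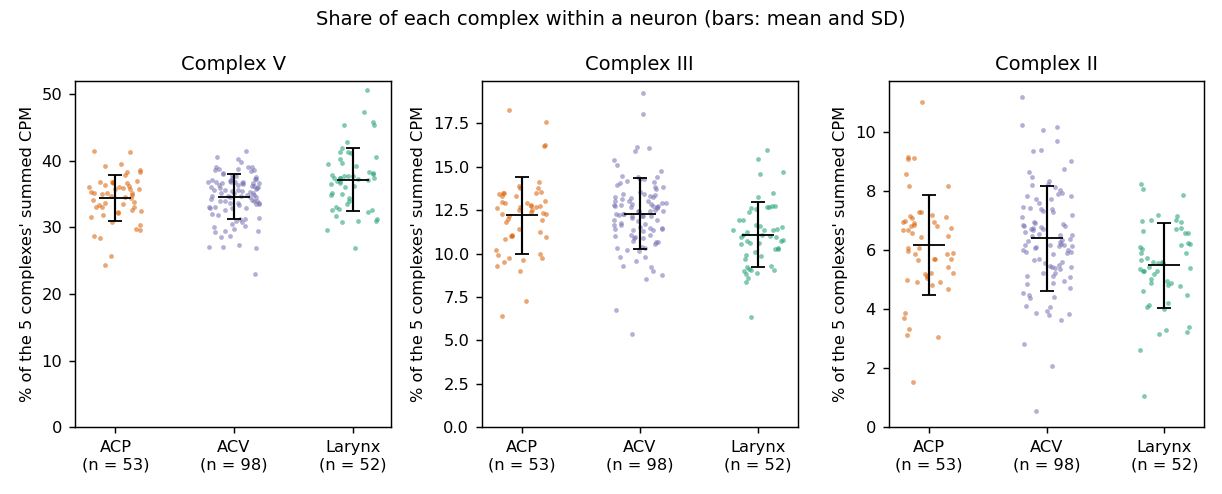
Each dot is 1 neuron, with the percentage of the 5 complexes' summed CPM that falls on complex V, III or II on the vertical axis and the neuron type on the horizontal axis, and bars give the mean and SD. The mean complex V share is 34.4% in ACP, 34.6% in ACV and 37.2% in Larynx neurons, while complexes III and II are lower in Larynx neurons.

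Between neurons of 1 type the members varied together. Among the 67 members of at least 100 CPM, the median Spearman correlation over 2211 pairs was 0.47 in ACP, 0.45 in ACV and 0.35 in Larynx neurons. Over all pairs of 2312 genes of that level it was 0.03 in each type. Members of the same complex were not more alike than members of different complexes, with medians of 0.43 and 0.49 in ACP, 0.44 and 0.46 in ACV and 0.33 and 0.35 in Larynx neurons. The summed levels of complexes I and V had correlations of 0.88, 0.87 and 0.72. All values of a neuron share its library and its total, so these correlations are descriptions. The summed level had a Spearman correlation of 0.36 with the counts outside Rn45s in ACP neurons, 0.03 in ACV neurons and 0.01 in Larynx neurons.

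The members that followed the summed level most closely were Cox6b1, Atp5o, which encodes the stalk protein OSCP, Atp5d, Atp5g1 and Cox5a. Their mean Spearman correlations over the 3 types were 0.81, 0.80, 0.79, 0.78 and 0.78. Of 74 members 56 had a correlation of at least 0.5 and 5 were below 0.25. These 5 were Ndufc2 at 0.22, Atp5s at 0.13, Cox6b2 at 0.12, Ndufs1 at 0.11 and Atp5sl at -0.04. A member forms part of the sum it is compared with, most so the abundant ones, and the correlation was itself higher for abundant members, with a Spearman correlation of 0.50 with the mean level across 73 members.

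Of the genes outside the rule, the 10 most like the summed level were Hint1, Ppia, Mdh2, Nme1, Slc25a4, Usmg5, Ubb, Ndufab1, Psma7 and Psmb6. Their mean correlations ran from 0.78 to 0.73 over the neurons of 3 types. Mdh2 is the malate dehydrogenase of the citric acid cycle, Slc25a4 is the ADP/ATP carrier of the inner membrane, Usmg5 is a small ATP synthase subunit and Ndufab1 is a complex I subunit that the rule misses. Ppia encodes cyclophilin A and Psma7 and Psmb6 encode proteasome subunits. Their median transcript length was 1042 bases, that of the members 659 bases and that of genes of at least 100 CPM 2193 bases. The 10 genes most opposed to the sum, Atp6v0a1 and Cacna1b at their head with -0.63 and -0.61, had a median length of 5408 bases. The part of transcript length in these correlations was not tested.

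Because the members rise and fall together, their promoters were searched for the letters of factors known to act on respiratory genes. RefSeq promoters (GRCm38.p6, 250 bases before to 50 after the start) were at hand for 66 of 82 members and 27025 genes in all, and both strands were read. The palindromic NRF1 motif, printed in capitals below for 4 genes, was found in 5 members (7.58%), beside 1.07% of all promoters and 2.41% of those of genes with at least 5 CPM. The YY1 motif AAGATGGCG was found in 7 members (10.6%), beside 1.64% and 3.74%. The estrogen-related receptor motif TCAAGGTCA was found in 2 members (3.03%), beside 0.466% and 0.306%. The ETS motif CCGGAAGT was in 5 members (7.58%), beside 4.31% and 9.33%. No member held the palindromic NRF1 letters together with those of YY1 or the estrogen-related receptor. With 5, 7 and 2 members holding these motifs, the matches were too few for this absence to be informative. It was not set beside other genes. A shorter NRF1 motif, TGCGCA, was found in 17 members (25.8%), beside 8.79% and 16.8%. Ndufa9 and Ndufs6 held it together with the YY1 letters, and Sdhd with those of the estrogen-related receptor.

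Of the 7 YY1 matches 6 lay after the start, in Ndufa9, Ndufc1, Ndufs4, Ndufs6, Ndufs7 and Atp5j2, with the first base 23 to 36 bases after it. The 5 palindromic NRF1 matches were in Ndufa11, Cox6a1, Atp5g2, Atp5k and, after the start, Uqcrc1. Matches of the palindromic NRF1, YY1 and estrogen-related receptor motifs that lie wholly before the start are shown, to let the genes of different complexes be compared. The start is that of the RefSeq promoter. By the GENCODE vM21 positions, the stretch of Atp5k overlaps the gene, and those of Atp5g2 and Atp5j lie within it. The matches are given with up to 40 bases on either side, the motif in capitals, on the strand of the gene.
Ndufa11, NRF1, 60 bases before the start, chr17:56717662-56717751, plus strand: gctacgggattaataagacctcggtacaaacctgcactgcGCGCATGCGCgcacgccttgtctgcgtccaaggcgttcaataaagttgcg
Cox6a1, NRF1, further before the start, chr5:115349071-115349160, minus strand: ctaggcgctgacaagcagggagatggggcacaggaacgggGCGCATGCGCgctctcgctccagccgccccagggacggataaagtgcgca
Atp5g2, NRF1, 42 bases before the start, chr15:102671048-102671129, minus strand: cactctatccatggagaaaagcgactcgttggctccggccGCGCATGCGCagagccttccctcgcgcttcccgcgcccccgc
Atp5k, NRF1, 50 bases before the start, chr5:108434400-108434489, minus strand: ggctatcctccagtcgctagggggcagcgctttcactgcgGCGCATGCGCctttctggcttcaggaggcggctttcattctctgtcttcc
Atp5j, YY1, 88 bases before the start, chr16:84835016-84835104, minus strand: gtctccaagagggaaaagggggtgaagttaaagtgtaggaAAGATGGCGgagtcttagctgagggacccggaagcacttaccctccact
Atp5g3, estrogen-related receptor letters on the opposite strand, 52 bases before the start, chr2:73911330-73911418, minus strand: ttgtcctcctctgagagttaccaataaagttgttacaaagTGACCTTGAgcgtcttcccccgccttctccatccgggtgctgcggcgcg
A match is a run of letters and not a bound site. Members with the palindromic NRF1 letters ran from 9.31 CPM per kb in Atp5g2 to 730 in Uqcrc1. Atp5g2 shares 35.8% of its 75-base stretches with other genes. Cox6b1 and Atp5b, without any of these letters, were among the highest members. The relation of the letters to level was not tested.

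Subunits that the rule misses, and related proteins such as cytochrome c listed with them, behaved like the members. Cox4i1, the general form of a large nuclear subunit of complex IV, had 899 ± 324 CPM in ACP, 1075 ± 505 in ACV and 1206 ± 473 in Larynx neurons, and the lung isoform Cox4i2 was under 1 CPM in each. Cyc1, the cytochrome of complex III, had 578 ± 314, 540 ± 303 and 608 ± 253 CPM. Of 7 such genes with at least 5 CPM, 1 was past the fold, between ACP and Larynx neurons, beside 35.2% of all genes in that comparison. This was Cycs, which encodes cytochrome c, a mobile carrier and not a subunit, with a log2 ratio of -0.69 for ACP over Larynx.

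Assembly factors and the enzymes that feed the chain also stayed mostly within the fold, as did most genes. The shares of all genes past the fold were 26.4% for ACP with ACV, 35.2% for ACP with Larynx and 38.4% for ACV with Larynx. Of 42 assembly factors, 3, 6 and 8 were past it in the comparisons of ACP with ACV, ACP with Larynx and ACV with Larynx, with medians of 0.01, 0.08 and 0.25. Of 17 genes of the citric acid cycle and pyruvate dehydrogenase, 1, 1 and 0 were past it, with medians of -0.10, -0.21 and -0.10. The gene past it was Suclg2, a subunit of succinyl-CoA ligase, at a mean of 6.12 CPM in ACP, 22.2 in ACV and 14.7 in Larynx neurons. Of 15 glycolytic genes, 0, 1 and 3 were past it, Aldoc higher in Larynx and Pfkp and Ldha higher in ACV neurons, with medians of -0.18, -0.18 and 0.20. Of 12 mitochondrial carriers and channels, 1, 2 and 2 were past it, with medians of -0.16, -0.14 and 0.15. For ACP over ACV, 14 of 15 glycolytic genes, 10 of 12 carriers and 13 of 17 genes of the citric acid cycle were below 0, the direction in which the members leaned. Of all 11235 genes, 5488 were below 0 in that comparison.

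Regulators of mitochondrial biogenesis are known to act on many of the members' genes. This list of 13 held coactivators of the PGC-1 family, nuclear factors that bind respiratory gene promoters, and proteins that act in the copying or expression of mitochondrial DNA. Against Larynx neurons 8 of the 13 were past the fold and lower in ACP, and 8 were lower in ACV, beside 18.9% and 22.2% of all genes in that direction. The medians were -1.04 and -1.02, and Tfb1m was past the fold and higher in both cardiac types. Between ACP and ACV neurons 1 of 13 was past it, beside 26.4% of all genes. Markers of other neurons moved the same way against Larynx neurons, with 4 of 5 past the fold and lower in ACP and 5 of 5 in ACV, and medians of -2.02 and -1.38. Their summed level ran from 0 to 1990.0 CPM in ACP, 0 to 2222 in ACV and 0 to 1815 in Larynx neurons, with medians of 56.2, 49.9 and 241. Of 6 astrocyte markers, 1 was past the fold and higher in ACP and 4 in ACV than in Larynx neurons. The part of these markers' cells in the regulators' levels was not tested.

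Esrrg, an estrogen-related receptor, had the widest difference of ACV from Larynx neurons in that list. It ran from 0 to 220 CPM in ACP neurons, with a median of 1.44, from 0 to 277 in ACV neurons, with a median of 0, and from 0 to 418 in Larynx neurons, with a median of 27.1. The ranges overlapped, and it had a count in 62.3%, 48% and 80.8% of neurons. Its log2 ratio was -1.52 for ACP over Larynx and -2.05 for ACV over Larynx. Ppargc1a, the coactivator PGC-1alpha, had 25.5 ± 63.3 CPM in ACP, 17.9 ± 42.5 in ACV and 41.1 ± 57.3 in Larynx neurons, with log2 ratios of -0.67 and -1.15. Tfam, which packages mitochondrial DNA, had 23.5 ± 36.5, 22.7 ± 37.1 and 49.5 ± 90.9 CPM, with log2 ratios of -1.04 and -1.09.

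These regulators were low, with means under 70 CPM and 0 counts in many neurons, and the SDs of those named exceeded their means. The median of Tfam was 9.18 CPM in ACP, 3.61 in ACV and 2.56 in Larynx neurons, so that Larynx neurons had the highest mean and the lowest median. The list was counted again in other settings, each time among the regulators that still reached 5 CPM, beside all genes past the fold in either direction. With medians over neurons, which only 6897 genes passed, 2 were past the fold and lower in ACP and 2 in ACV, beside 47.8% and 51.1%. With counts thinned to a common total, 8 and 9 were, beside 35.7% and 39.1%. With neurons of 30 to 60% Rn45s only, 6 and 8 were, beside 40.4% and 46.7%. With Rn45s kept in the totals 3 and 4 were, beside 53.4% and 51.9%.

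**Figure D5:**
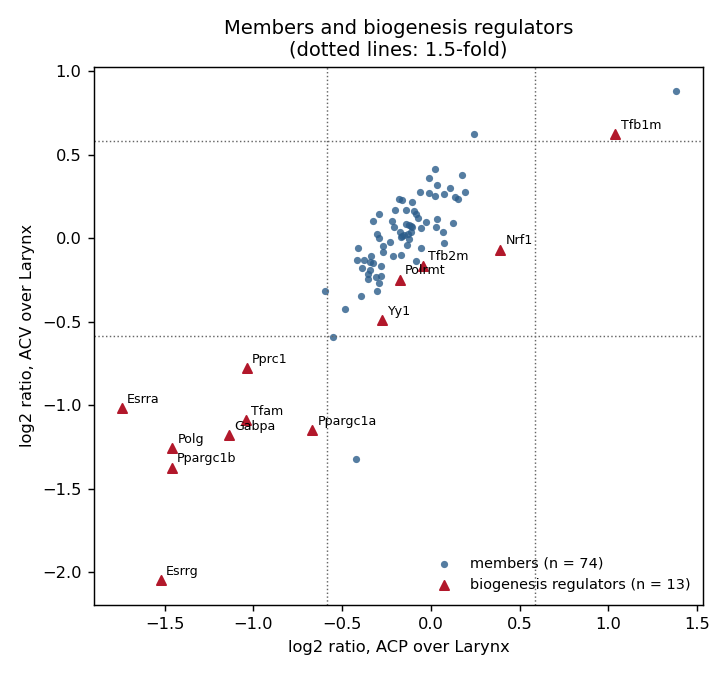
Each blue dot is 1 of 74 members and each red triangle 1 of 13 regulators of mitochondrial biogenesis, placed by its log2 ratio of ACP over Larynx on the horizontal axis and of ACV over Larynx on the vertical axis, which share the Larynx neurons, with dotted lines at 1.5-fold. Most members lie near 0 on both axes, and 8 regulators lie below the fold on both, with Esrrg at -1.52 and -2.05.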

How the data were processed

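Counts of reads per gene in each neuron were used as the authors deposited them, without normalization. Per the labels and methods, the authors trimmed the reads, aligned them to mm10 with STAR 2.6.1d and assigned the clusters used as types. The counting program and gene annotation are not given in the sources used here. The methods state that neurons with more than 1800 counts of Apoe were removed, and 39 neurons of the deposited table exceed this, 11 ACP and 28 ACV, so 1 alternative keeps only low-Apoe neurons. A second deposited table, of scaled values whose columns do not sum to 1000000, was not used.

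Counts without Rn45s were scaled to 1000000 per neuron. Log2 ratios were taken of type means plus 1, for genes of at least 5 CPM over the 3 types. No p-value was computed, since neurons are not animals. Total counts were 542162 to 3292763 per neuron. Member lengths (the lower median over basic protein-coding transcripts), positions and shared 75-base stretches came from GENCODE vM21, and promoters from RefSeq.

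The members and lists were chosen with earlier results of these data known. Named genes are the highest and lowest member per kilobase in each complex, the 5 largest ratios of each comparison, the catalytic and isoform lists, and the 10 other genes most like the summed level. Genes named from the other pathway lists were chosen after their values were seen. The fold counting was run on simulated data with planted changes of known size. Genes varied independently there, so that run does not cover genes that rise and fall together. The work used Python 3.11.15, numpy 2.4.6, pandas 2.3.3, scipy 1.17.1, R 4.3.3, edgeR 4.0.16 and DESeq2 1.42.0, the last pair for size factors only.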

Additional observations from a re-analysis of the deposited data

How the results depend on the processing

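Of 16 alternatives, 14 were run on the summed levels. The sums always held all members and were large, so a change of pseudocount or of the filter on low values could not move them. The log2 ratio of the summed level for ACP over ACV lay between -0.28 and -0.08 across the alternatives. With Rn45s kept in the totals the ratios became 0.47 for ACP over Larynx and 0.58 for ACV over Larynx. This follows from the construction, since Rn45s took a larger share of the Larynx counts, and Sdhc then turned to 0.078 for ACP over Larynx. The number of members past the fold between ACP and ACV was 0 with those totals, with a pseudocount of 5 CPM, with a minimum of 20 CPM and at 2-fold, 2 without a filter on low values, 3 with medians over neurons and 14 at a limit of a 25% difference, beside 11.3 to 50.2% of all genes in these settings. Between ACP and Larynx it was 23 of 73 with Rn45s kept, beside 53.4% of all genes, 5 without a filter (28.4%), 17 at the 25% limit (58%), and 1 with TMM library sizes, with medians, with a pseudocount of 5 CPM, with neurons of 6000 to 10000 genes and at 2-fold (15.6 to 47.8%). Between ACV and Larynx it was 43 of 73 with Rn45s kept, beside 51.9%, 9 with neurons of 30 to 60% Rn45s (46.7%), 2 with neurons of 6000 to 10000 genes (41.5%), 9 at the 25% limit (61%) and 1 at 2-fold (17.2%). The cause of the other shifts was not tested. No paired analysis was possible because no label pairs the neurons. Low members and the regulators are limited by depth, most so in Larynx neurons, where the lowest neuron had 118492 counts outside Rn45s.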

Other observations

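Mitochondrial carriers and channels past the fold were Mcu, the pore of the mitochondrial calcium uniporter, with a mean of 99.6 CPM in ACP, 174.4 in ACV and 114.9 in Larynx neurons, and, in comparisons with Larynx neurons, Slc25a22 and Ucp2. Among neurons of 1 type the median member had a coefficient of variation of 52.8% in ACP, 53.3% in ACV and 55.1% in Larynx neurons, against 73.9%, 74.5% and 83.3% for genes of at least 100 CPM. The summed level of complex II followed that of complex IV least closely of the pairs of complexes, with Spearman correlations of 0.66, 0.50 and 0.38.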
